A study of Canis lupus familiaris with 33 samples.

Results

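The 4 stretches of the dog genome described here are counterparts of the short arm of human chromosome 1 (1p): chromosome 2 from 70 Mb to its end, chromosome 5 from 56 to 63 Mb, chromosome 6 from 48 Mb to its end and chromosome 15 below 15 Mb (CanFam3.1 coordinates). Their members were the genes that start inside those limits, have at least 2 distinct exons and span less than 500 kb. There were 854 of them among the 30951 genes of the count table and the 24495 of the same class: 283 on chromosome 2, 138 on chromosome 5, 224 on chromosome 6 and 209 on chromosome 15. The rule used position and gene structure only, and no expression value.

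Oligodendroglioma is a glioma whose cells resemble oligodendrocytes, the myelin-forming cells of the brain. In the human tumour, 1p and the long arm of chromosome 19 (19q) are lost together, through an unbalanced translocation between both chromosomes, and this loss is part of how the tumour is defined. In dogs the genes of human 1p are spread over several chromosomes. A lost copy often, but not always, lowers the RNA of the genes on it, and RNA levels also follow which cells a sample holds; no DNA copy number was measured in the libraries analysed here.

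The study compared canine oligodendroglioma with healthy dog brain by sequencing total RNA, in formalin-fixed paraffin-embedded (FFPE) blocks and in fresh-frozen tissue taken at necropsy. It gave 33 libraries of 25 dogs: 11 FFPE tumours (9 of grade III, 2 of grade II), 10 FFPE control brains, 6 fresh-frozen tumours (5 of grade III, 1 of grade II) and 6 fresh-frozen control brains. The FFPE tumours came from 4 Boxers, 6 French Bulldogs and 1 Pomeranian, and the FFPE controls from 4 Boxers, 5 French Bulldogs and 1 Bolonka Swetna. The fresh-frozen tumours came from 1 Boxer, 3 French Bulldogs and 2 other dogs, a Border Terrier and a Pomeranian. The fresh-frozen controls came from 2 French Bulldogs and 4 other dogs, a Hovawart, a mongrel, a Berner Sennenhund and a Bolonka Swetna. French Bulldogs were thus the only breed in both fresh-frozen groups, and among the other dogs there breed and tumour cannot be told apart. Stated ages ran between 4.7 and 12 years for the FFPE tumours (9 dogs with a stated age), 2 and 8 years for the FFPE controls (5 dogs), 4.7 and 10 years for the fresh-frozen tumours (5 dogs), and 2.8 and 10.2 years for the fresh-frozen controls (5 dogs). The labels name no treatment, and the brain region of the controls was not stated; 8 dogs, 5 with tumours and 3 without, were sequenced from both tissues.

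Total counts ran between 1752162 and 12501029 in FFPE tumours, 406406 and 32584840 in FFPE controls, 9765907 and 25168080 in fresh-frozen tumours, and 15255966 and 26726025 in fresh-frozen controls. All genes within the 4 segments' limits that met the rule took 1.703% to 3.14% of the counts of a library. The table gives Ensembl gene identifiers without gene names, so the tissue labels could not be checked against marker genes, and members are given by position, exon number or identifier. In bulk tissue, fewer cells of a type and less RNA per cell cannot be told apart.

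The chromosome 6 segment was the emptiest of the 4, with 7.65 members per Mb, against 14.35 on chromosome 15, 18.4 on chromosome 2 and 20.29 on chromosome 5. The members had a median exonic length of 1753.5 bp and a median of 7 exons, against 1657 bp and 6 exons in the 23641 other genes of the same class. Another 157 single-exon genes and 5 genes spanning 500 kb or more lay inside the limits and were left out. Of 30 well-known genes of human 1p, RefSeq's annotation of another dog assembly (UU_Cfam_GSD_1.0) places all 30 on these chromosomes, 10 on chromosome 5, 8 on chromosome 6, 6 on chromosome 2 and 6 on chromosome 15; whether each lies inside the limits was not determined.

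Of the 854 members, 477 had enough counts to be tested between FFPE tumours and controls and 537 between fresh-frozen tumours and controls. Both fits tested 471 of them, 311 were tested in neither, and 3 had no count in any library. By segment, 168 members were tested in FFPE and 186 in fresh-frozen tissue on chromosome 2, 75 and 89 on chromosome 5, 110 and 121 on chromosome 6, and 124 and 141 on chromosome 15. The quasi-likelihood test of edgeR was fitted to the whole table, and a gene was called where its Benjamini-Hochberg adjusted p over all tested genes was below 0.05.

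Taken as a whole, the members of the 4 segments fell in tumours about as often as other genes. In FFPE tissue 38 of the 477 tested members rose and 59 fell in tumours, and the median log2 fold change of tumour over control was -0.01, against 0.02 over all 13338 genes tested. Among all those genes 10.1% rose and 11.1% fell. In fresh-frozen tissue 90 members rose and 75 fell among 537 tested, with a median log2 fold change of 0.05 against 0.10 over all 15057 genes tested, of which 18.3% rose and 12.2% fell. The members' share of lower calls, 12.37% in FFPE and 13.97% in fresh-frozen tissue, lay near these background shares. With age as a covariate in the 9 FFPE tumours and 5 FFPE controls of stated age 2 members were called, and in the FFPE libraries of the 8 dogs with both tissues edgeR called 0, with 74 at an unadjusted p below 0.05. Leaving out the fresh-frozen control of dog 60629 took the fresh-frozen count of called members to 100, against 165 with all libraries. This was the lowest count with any single library left out. The shares of all genes called in these refits were not counted. A loss over the whole table therefore cannot be told from one particular to the members.

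The chromosome 5 segment was the one with the most lower calls for its size in both tissues. In FFPE tumours 6 of its 75 tested members rose and 18 fell, which is 24% falling, and their median log2 fold change was -0.18. In fresh-frozen tumours 12 of 89 rose and 17 fell, which is 19.1% falling, with a median of -0.20. Its members with a log2 fold change below 0 numbered 47 of 75 in FFPE and 53 of 89 in fresh-frozen tissue. Leaving out 1 library at a time gave 14 to 19 falling members in FFPE tissue and 10 to 24 in fresh-frozen tissue, 10 without the control of dog 60460, 11 without the control of dog 60459, the control of dog 60629 or the tumour of dog 60461, and 24 without the tumour of dog 60636. The 18 falling members of FFPE tissue were 0 with age as a covariate, with 18 of 82 at an unadjusted edgeR p below 0.05, 0 in the 8 dogs with both tissues alone, with 17 of 87, and 9 without those dogs. Dogs 60126, 60127, 60461 and 60462 stood apart in an earlier look at these data. Without their fresh-frozen libraries 5 members of the segment fell. In those 4 dogs alone edgeR called 0, with 25 at an unadjusted p below 0.05. The shares of all genes that fell were not counted in these refits, except in FFPE tissue without the 8 dogs, where 5.51% fell.

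The other 3 segments held calls of both directions. Their shares of lower calls were 9.52% in FFPE and 10.2% in fresh-frozen tumours on chromosome 2, 6.36% and 14.05% on chromosome 6, and 14.5% and 15.6% on chromosome 15. Their shares of higher calls were 6.55% and 13.4% on chromosome 2, 9.09% and 21.5% on chromosome 6, and 8.87% and 19.1% on chromosome 15. On chromosome 2, 11 of 168 members rose and 16 fell in FFPE tumours (median log2 fold change -0.02), and 25 of 186 rose and 19 fell in fresh-frozen tumours (median 0.09). On chromosome 6, 10 of 110 rose and 7 fell in FFPE tumours (median 0.09), and 26 of 121 rose and 17 fell in fresh-frozen tumours (median 0.09). On chromosome 15, 11 of 124 rose and 18 fell in FFPE tumours (median 0.01), and 27 of 141 rose and 22 fell in fresh-frozen tumours (median 0.04). In bins of 5 Mb, chromosome 2 between 70 and 85 Mb had median log2 fold changes between -0.04 and 0.09 in FFPE and between 0.05 and 0.14 in fresh-frozen tissue, its last bin had -0.79 over 5 members in FFPE and -0.11 over 4 in fresh-frozen tissue, and chromosome 15 between -0.03 and 0.09 in FFPE and between 0.0043 and 0.13 in fresh-frozen tissue. At the 70 Mb limit of chromosome 2 the 10 nearest tested members had a median of 0.31 in FFPE and 0.47 in fresh-frozen tissue, against -0.32 and -0.30 in the 10 nearest genes outside.

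**Figure D1:**
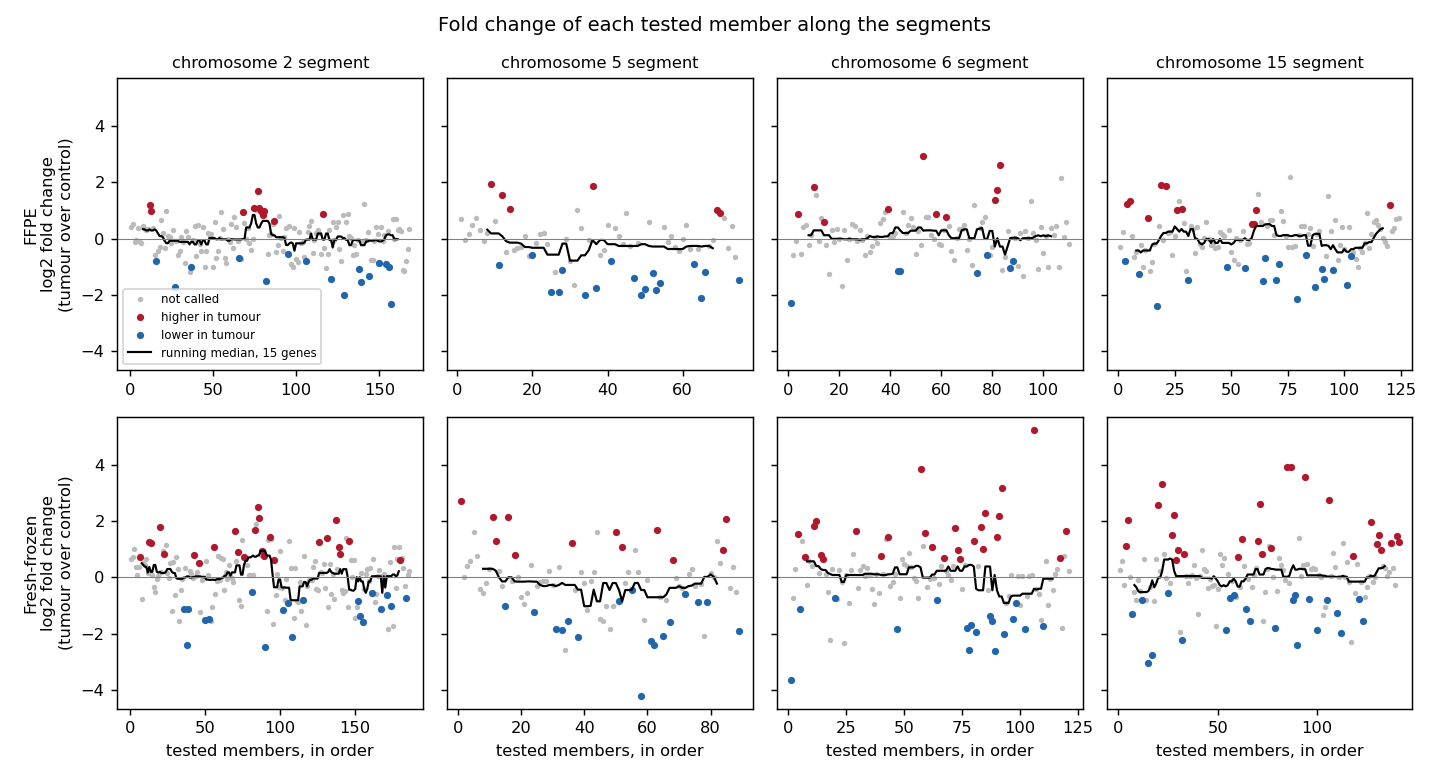
Log2 fold change (tumour over control) of each tested member, in order along its segment, for FFPE (upper row) and fresh-frozen tissue (lower row); red points rose and blue points fell in tumours at an adjusted p below 0.05, grey points were not called, and the line is a running median over 15 genes. Red and blue points lie side by side in every segment, and the line stays near 0 over most of chromosomes 2, 6 and 15, leaves it at short stretches there, and lies below it over most of chromosome 5.

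Some members separated the fresh-frozen groups completely, about as often as genes over the whole table did. In 30 of the 537 tested members every tumour lay above every control, and in 27 every tumour lay below; over all genes these shares were 6.35% and 5.13%. Of 89 tested members the chromosome 5 segment had 2 with every tumour above and 8 with every tumour below. Chromosome 2 had 10 and 7 of 186, chromosome 6 had 6 and 6 of 121, and chromosome 15 had 12 and 6 of 141. In FFPE tissue, with 11 tumours and 10 controls, 0 of 477 members separated the groups in this way, against 0.127% of all genes with every tumour above and 0.277% with every tumour below.

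To follow a whole segment in each dog, its shift was taken as the median, over its tested members, of a library's log2 CPM (counts scaled to the size of the library) minus the midpoint of that gene's tumour and control means, less the same median over all tested genes. A gene at a 2-fold lower level lies 1 lower on this scale. The shift is a description and carries no test, because the segments were proposed with results of these libraries known.

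On chromosome 5 the shift averaged -0.0998 ± 0.229 in FFPE tumours and 0.110 ± 0.337 in FFPE controls (SD, n = 11 and 10). The lowest, median and highest values were -0.414, -0.028 and 0.323 in FFPE tumours and -0.578, 0.144 and 0.577 in FFPE controls. The difference of -0.210 was smaller than the SD within either group. No FFPE tumour lay below every control, a limit set by the control of dog 60462 alone; without it the lowest control was at -0.164 and 5 of 11 tumours lay below it. Counts with a control left out were added after the values were seen. In the FFPE libraries of the 8 dogs with both tissues alone the difference was 0.003, and with no filter on low counts it was -0.053. In fresh-frozen tissue the shift averaged -0.139 ± 0.251 among tumours and 0.158 ± 0.253 among controls (SD, 6 libraries a group), a difference of -0.297. Fresh-frozen tumours ran between -0.422 and 0.171 with a median of -0.162, and fresh-frozen controls between -0.166 and 0.373 with a median of 0.280. The groups overlapped, with 3 of 6 tumours below every control, and with no filter on low counts the difference was -0.135.

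Chromosomes 2 and 6 spread widely among healthy brains, with SDs somewhat below those among tumours. The chromosome 2 shift averaged -0.030 ± 0.250 in FFPE tumours and 0.012 ± 0.212 in FFPE controls, and -0.054 ± 0.239 in fresh-frozen tumours and 0.0093 ± 0.171 in fresh-frozen controls. The chromosome 6 shift averaged 0.045 ± 0.345 in FFPE tumours and -0.033 ± 0.315 in FFPE controls, and 0.0001 ± 0.268 in fresh-frozen tumours and -0.013 ± 0.203 in fresh-frozen controls. These differences were a small part of the SD within a group.

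The chromosome 15 segment was the steadiest. Its shift averaged -0.034 ± 0.049 in FFPE tumours and 0.0032 ± 0.105 in FFPE controls, and 0.0025 ± 0.034 in fresh-frozen tumours and 0.018 ± 0.035 in fresh-frozen controls. Every tumour lay within the range of the controls in both tissues. Without the FFPE control of dog 50315, the library of fewest counts, 4 of 11 FFPE tumours lay below every control, and without the fresh-frozen control of dog 60516 3 of 6 fresh-frozen tumours did.

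Over the 4 segments together the shift averaged -0.037 ± 0.058 in FFPE tumours and 0.0086 ± 0.041 in FFPE controls, and -0.038 ± 0.056 in fresh-frozen tumours and 0.036 ± 0.044 in fresh-frozen controls. Of the tumours, 3 of 11 FFPE and 4 of 6 fresh-frozen ones lay below every control, the differences of means being -0.046 and -0.075; without the FFPE control of dog 60462 it was 5 of 11, and without the fresh-frozen control of dog 60126 5 of 6. No tumour had all 4 segments below 0, and none had all 4 or even 3 segments below every control. With the density centring described below, 1 FFPE tumour, of dog 60749, had all 4 below 0, and none of the controls did. The lowest shift of any segment in any tumour was -0.495 in FFPE and -0.446 in fresh-frozen tissue, both of the chromosome 2 segment in the tumour of dog 60127.

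**Figure D2:**
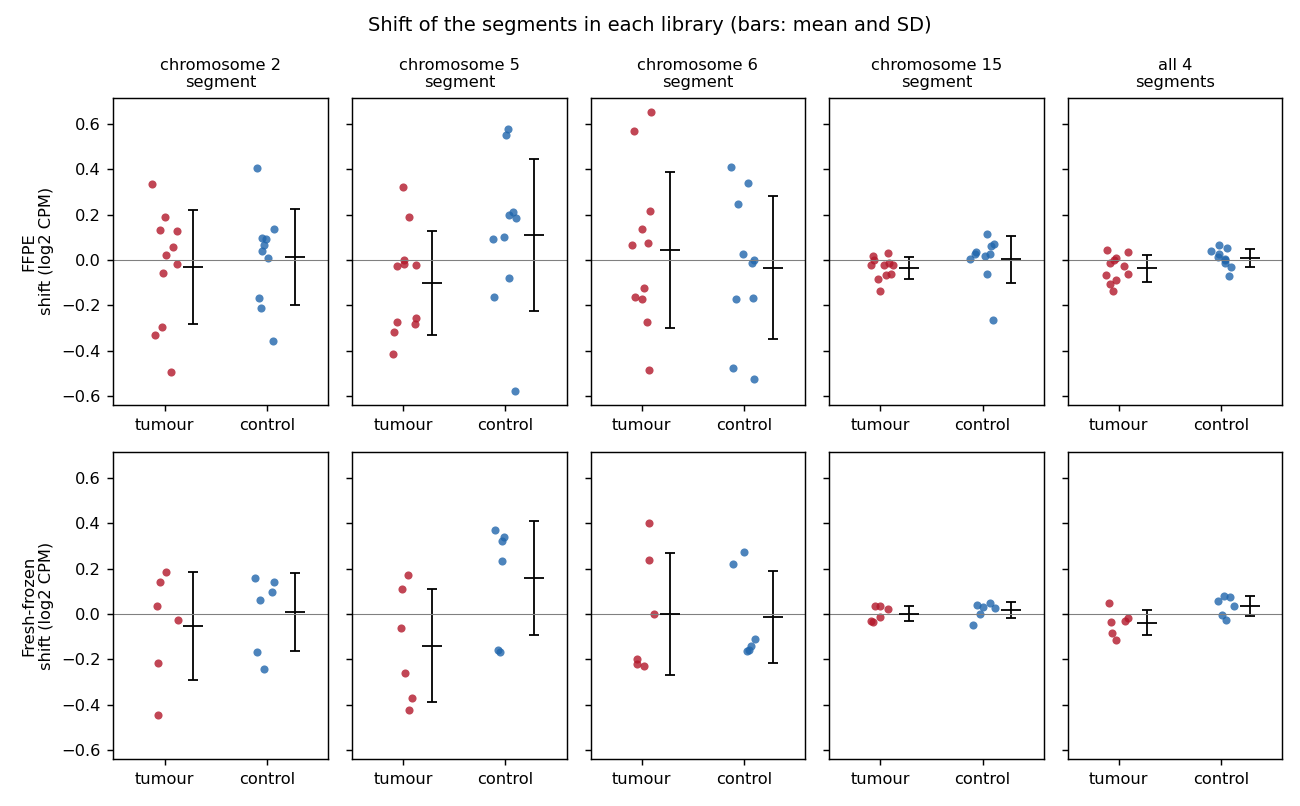
Shift of each segment and of all 4 together (log2 CPM, centred on all tested genes) in each library, FFPE in the upper row and fresh-frozen in the lower row, tumours left of controls; each point is a library and the bars give the mean and SD. Tumours and controls overlap in every panel, and on chromosome 5 the tumour mean lies 0.210 (FFPE) and 0.297 (fresh-frozen) below the control mean.

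Both tissues of the same dog could be compared in 8 dogs. The chromosome 5 shift had the same sign in FFPE and fresh-frozen tissue in 6 of 8 dogs, and the FFPE value differed from the fresh-frozen one by up to 0.447. The tumour of dog 60127 had -0.414 in FFPE and -0.372 in fresh-frozen tissue, whereas the tumour of dog 60636 had -0.275 in FFPE and 0.171 in fresh-frozen tissue, and that of dog 60461 had -0.015 in FFPE and -0.422 in fresh-frozen tissue. The tumour of dog 60679 had -0.316 in FFPE and 0.112 in fresh-frozen tissue, and that of dog 60749 had -0.021 in FFPE and -0.262 in fresh-frozen tissue. The tumour dogs with the lowest values in one tissue were therefore not those with the lowest in the other, dog 60127 excepted. The chromosome 15 shift moved least between the tissues of a dog, by a median of 0.021 and at most 0.174.

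The spread among libraries moved with the gene density of the genome. A gene's density was taken as the number of genes of the same class within 1 Mb, and each library's density contrast as the median shift of genes outside the segments in the densest 25% (47 or more such neighbours) minus that in the sparsest 25% (18 or fewer). The contrast ran between -1.07 and 0.672 in FFPE tumours and between -0.804 and 0.827 in FFPE controls, and between -0.720 and 0.523 in fresh-frozen tumours and -0.516 and 0.167 in fresh-frozen controls. The tested members had a median density of 58 on chromosome 5 in FFPE tissue, 39 on chromosome 2, 33 on chromosome 15 and 18.5 on chromosome 6. Of the 7 FFPE libraries with the lowest contrast, 6 were among the 7 lowest on chromosome 2, 6 among the 7 lowest on chromosome 5 and 7 among the 7 highest on chromosome 6. Of the 4 fresh-frozen libraries with the lowest contrast, 4 were among the 4 lowest on chromosome 2, 3 among the 4 lowest on chromosome 5 and 4 among the 4 highest on chromosome 6. Both tumours and controls were among them, and those 4 fresh-frozen libraries were the tumours of dogs 60127 and 60461 and the controls of dogs 60126 and 60462, the set that stood apart.

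**Figure D3:**
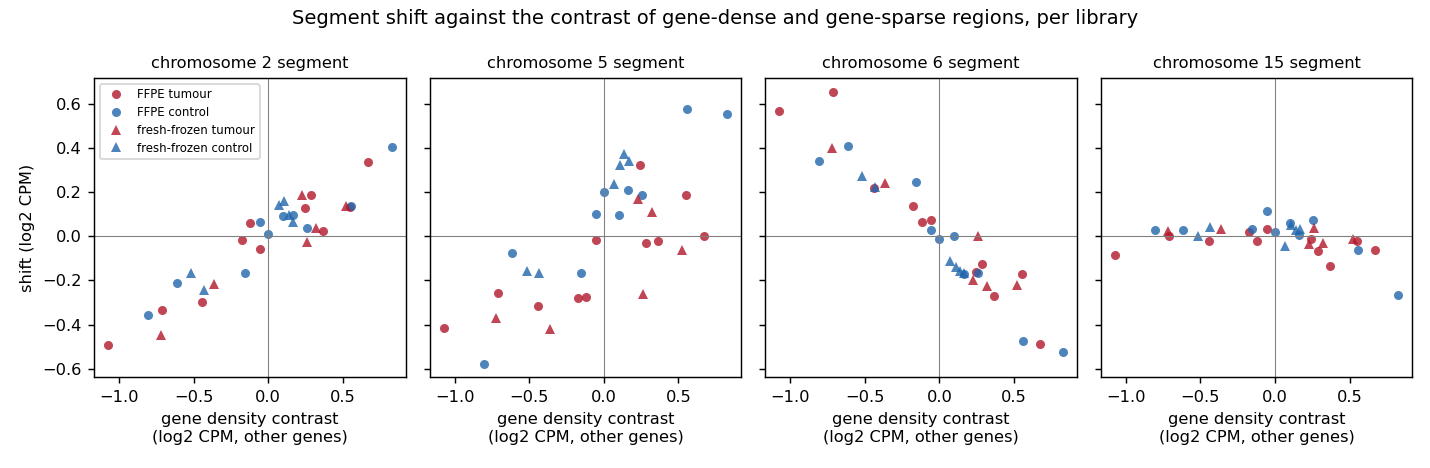
Shift of each segment (log2 CPM) against the density contrast of the same library, computed from genes outside the segments (log2 CPM); circles are FFPE and triangles fresh-frozen libraries, red tumours and blue controls. Chromosome 2 and 5 shifts lie low and chromosome 6 shifts lie high in libraries with a low contrast, which include tumours and controls, and chromosome 15 shifts stay near 0.

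With each gene centred on genes of like density outside the segments, the SD over all libraries shrank to 0.133 on chromosome 2 and 0.162 on chromosome 6 in FFPE tissue, against 0.228 and 0.325 without it. On chromosome 15 the SD grew, from 0.0808 to 0.0997 in FFPE and from 0.0339 to 0.0417 in fresh-frozen tissue. On chromosome 5 the centred FFPE shift averaged -0.091 ± 0.154 in tumours and 0.117 ± 0.218 in controls, a difference of -0.208. Of the FFPE tumours 0 of 11 lay below every control. The centred fresh-frozen shift averaged -0.158 ± 0.180 in tumours and 0.198 ± 0.187 in controls, a difference of -0.357. Of the fresh-frozen tumours 4 of 6 lay below every control. The chromosome 5 difference was thus about as large with this centring as without it. With the density contrast as a covariate of the fit, the chromosome 5 segment had 7 rising and 20 falling members in FFPE tumours. Fresh-frozen tumours had 13 rising and 18 falling. In FFPE tissue this covariate also raised the calls over all 4 segments, from 38 rising and 59 falling to 56 and 81 of 477. The share of all genes called with this covariate was not counted. Within the set of 4 fresh-frozen dogs the chromosome 5 difference was -0.234, and within the other 8 it was -0.329, both without density centring. The base composition of the members was not tested, because no genome of this build was used here.

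Within the chromosome 5 segment the lower calls lay mostly inward of its limits. Genes within 1 Mb of a limit were left out on every segment, but only on chromosome 5 was the remaining stretch followed further. There the tumour minus control difference of the shift had moved most, from -0.210 to -0.456 in FFPE and from -0.297 to -0.563 in fresh-frozen tissue. The larger fall of this stretch may therefore partly reflect its choice. Leaving out the first and last Mb, 75 members started between 57 and 62 Mb. In FFPE tumours 1 of the 39 tested rose and 13 fell, with a median log2 fold change of -0.37, and the 36 tested members of the outer 2 Mb had 5 rising and 5 falling, with a median of -0.04. In fresh-frozen tumours 5 of 45 rose and 12 fell, with a median of -0.44, and the 44 outer members had 7 rising and 5 falling, with a median of 0.01. By single Mb, the median was -0.50 in FFPE and -1.02 in fresh-frozen tissue at 57 to 58 Mb, -0.04 and -0.01 at 58 to 59 Mb, -0.28 and -0.49 at 60 to 61 Mb, and -0.63 and -0.58 at 61 to 62 Mb, so that the fall was not even along the interval. Just beyond the 63 Mb limit, the 10 nearest tested genes outside had medians of -0.24 in FFPE and -0.50 in fresh-frozen tissue, against -0.15 and 0.26 in the 10 nearest inside. At the 56 Mb limit the 10 outside had 0.24 and 0.66, and the 10 inside 0.40 and 0.36.

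The shift of this inner stretch averaged -0.241 ± 0.241 in FFPE tumours and 0.215 ± 0.421 in FFPE controls, and -0.274 ± 0.288 in fresh-frozen tumours and 0.289 ± 0.222 in fresh-frozen controls (SD, n = 11, 10, 6 and 6). The differences were -0.456 and -0.563, and 4 of 6 fresh-frozen tumours lay below every control. Of the 11 FFPE tumours 1 lay below every control, and 7 did without the control of dog 60462. The tumour values ran between -0.543 and 0.324 in FFPE and between -0.679 and 0.066 in fresh-frozen tissue, and the control values between -0.498 and 0.883 in FFPE and between 0.0037 and 0.513 in fresh-frozen tissue. Within the fresh-frozen set of 4 dogs the difference was -0.505, and within the other 8 it was -0.592. With density centring, 3 of 11 FFPE tumours (7 without the control of dog 60462) and 6 of 6 fresh-frozen tumours lay below every control, the highest fresh-frozen tumour at 0.0211 and the lowest fresh-frozen control at 0.0216. Leaving out 1 library at a time kept the difference between -0.537 and -0.383 in FFPE and between -0.651 and -0.509 in fresh-frozen tissue. With every member that had a count included, those below the filter on low counts among them, it was -0.116 in FFPE and -0.243 in fresh-frozen tissue. In the FFPE libraries of the 8 dogs with both tissues it was -0.234. The 13 falling members of FFPE tissue were 0 with age as a covariate and 0 in those 8 dogs alone, with 10 and 8 at an unadjusted edgeR p below 0.05, and 8 without those dogs; the 12 of fresh-frozen tissue were 4 without the set of 4 dogs and 0 in that set alone, with 13 at an unadjusted edgeR p below 0.05.

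**Figure D4:**
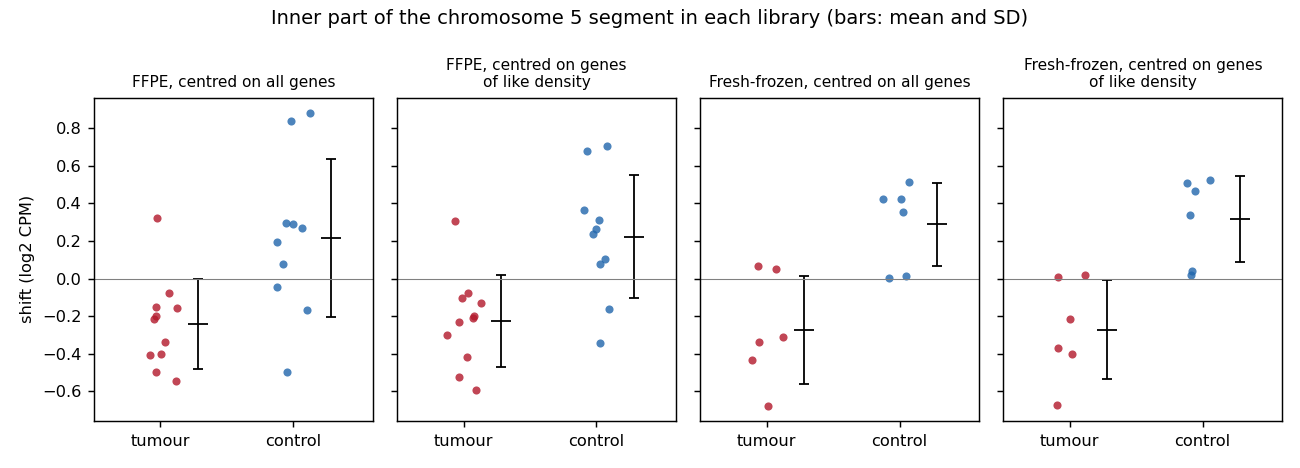
Shift of the members between 57 and 62 Mb of chromosome 5 (log2 CPM) in each library, tumours left of controls, centred on all tested genes or on genes of like density; bars give the mean and SD. Fresh-frozen tumours lie between -0.679 and 0.066 and controls between 0.0037 and 0.513 when centred on all genes, and the FFPE groups overlap.

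Falling members of the chromosome 5 stretch included some of the more strongly expressed ones. The member at 5:59936528-60021957 (18 exons, plus strand) had a lowest, median and highest log2 CPM of 3.22, 5.05 and 6.39 in FFPE tumours and of 4.85, 7.13 and 7.71 in FFPE controls, and of 3.21, 3.82 and 5.72 in fresh-frozen tumours and 5.24, 6.74 and 7.37 in fresh-frozen controls. In both tissues 5 tumours lay below every control. Its log2 fold change was -1.99 ± 0.34 in FFPE (SE; edgeR adjusted p = 0.00111) and -2.27 ± 0.49 in fresh-frozen tissue (edgeR adjusted p = 0.00597). Its neighbour at 5:60025602, with 43 exons, also fell, with log2 fold changes of -1.78 in FFPE and -2.39 in fresh-frozen tissue, and so did the members starting at 60153616 (-1.82 and -2.10) and 60321465 (-1.56 and -1.60). A member of the same stretch rose in fresh-frozen tumours: that at 60091345 had a log2 fold change of 1.69 there and of 0.58, not called, in FFPE tumours. These 4 were chosen after their values were seen.

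Rising members of chromosome 5 lay toward both of its limits and between them. At 56 to 57 Mb 3 of 27 tested members rose in FFPE tissue, and 5 of 34 did so in fresh-frozen tissue. At 62 to 63 Mb these were 2 of 9 and 2 of 10. The member at 5:56468164-56481913 (25 exons, minus strand) had 4.52, 6.11 and 8.21 log2 CPM as lowest, median and highest in FFPE tumours and 2.79, 4.58 and 5.56 in FFPE controls, and 5.32, 6.67 and 8.44 in fresh-frozen tumours and 4.39, 4.77 and 5.33 in fresh-frozen controls. Above every control lay 9 of 11 FFPE and 5 of 6 fresh-frozen tumours. Its log2 fold change was 1.93 ± 0.41 in FFPE (SE; edgeR adjusted p = 0.00303) and 2.14 ± 0.46 in fresh-frozen tissue (edgeR adjusted p = 0.00603).

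Over the 4 segments, 64 members were called in the same direction in both tissues at an average of at least 2 log2 CPM in both, 32 higher and 32 lower in tumours. Chromosome 2 held 10 higher and 8 lower, chromosome 5 held 4 and 10, chromosome 6 held 10 and 5, and chromosome 15 held 8 and 9. Both fits tested 471 members, 165, 75, 107 and 124 of them on these chromosomes in the same order. The share of all genes that met the same rule was not counted, so these numbers have no background to be read against. The 2 highest and the 2 lowest of the 64 members, ranked by the smaller of a member's fold changes in both tissues, are given by identifier. The FFPE calls of all 4 were lost with age as a covariate (edgeR adjusted p of 0.122 to 0.375) and in the 8 dogs with both tissues alone (0.157 to 0.355), and the fresh-frozen calls of the first 3 without the set of 4 dogs (0.0708 to 0.153). Their FFPE log2 fold changes were then 2.30, 2.87, -3.24 and -2.75 with age as a covariate and 2.26, 2.57, -2.54 and -2.53 in the 8 dogs, in the order given below.

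The first, ENSCAFG00000020200, rose; it lies at 6:59158855-59169646 (plus strand, 10 exons). Its lowest, median and highest log2 CPM were 1.22, 3.6 and 7.08 in FFPE tumours and 0.71, 1.27 and 3.83 in FFPE controls, and 1.85, 5.35 and 7.81 in fresh-frozen tumours and 0.16, 1.11 and 3.96 in fresh-frozen controls. Above every control lay 5 of 11 FFPE tumours and 4 of 6 fresh-frozen tumours, and the rest lay among the controls. The log2 fold change was 2.93 ± 0.74 in FFPE (SE; edgeR adjusted p = 0.00914) and 3.84 ± 1.03 in fresh-frozen tissue (edgeR adjusted p = 0.0153). Without the tumour of dog 51234, the highest FFPE one, the FFPE log2 fold change was 2.21 (edgeR adjusted p = 0.0245).

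Farther along chromosome 6, ENSCAFG00000020343 at 6:68382317-68398053 (minus strand, 9 exons) rose too. It had 2.47, 3.99 and 7.02 log2 CPM as lowest, median and highest in FFPE tumours and -1.61, 1.71 and 3.67 in FFPE controls, and 2.77, 4.78 and 7.67 in fresh-frozen tumours and 0.47, 1.30 and 4.33 in fresh-frozen controls. Most tumours lay above every control, 8 of 11 in FFPE and 4 of 6 in fresh-frozen tissue. The log2 fold change was 2.61 ± 0.56 in FFPE (SE; edgeR adjusted p = 0.00358) and 3.17 ± 0.90 in fresh-frozen tissue (edgeR adjusted p = 0.0195), the fresh-frozen call being lost without the tumour of dog 60461 (edgeR adjusted p = 0.0724). Without the tumour of dog 51234, again the highest FFPE one, the FFPE log2 fold change was 1.96 (edgeR adjusted p = 0.00667).

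This member lay in a stretch of chromosome 6 whose neighbours moved in opposite directions. Between 65 and 70 Mb, 3 members rose and 2 fell among 13 tested in FFPE tumours (median log2 fold change -0.28), and 3 rose and 6 fell among 15 tested in fresh-frozen tumours (median -0.91). The members starting at 68078246 (1.38 in FFPE and 1.42 in fresh-frozen tissue) and 68364494 (1.73 and 2.19) rose with ENSCAFG00000020343, and those starting at 68964187 (-1.06 and -1.46) and 69118333 (-0.78 and -0.91) fell. These neighbours were chosen after their values were seen. In the other bins of 5 Mb of this segment the FFPE medians lay between -0.02 and 0.20 and the fresh-frozen ones between -0.41 and 0.48.

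At the other end of the segment ENSCAFG00000019992 fell; it lies at 6:48259545-48446363 (plus strand, 7 exons) and is the first member inside the chromosome 6 limit. Its lowest, median and highest log2 CPM were -1.29, 2.51 and 5.29 in FFPE tumours and 2.83, 5.37 and 7.38 in FFPE controls, and -3.28, 3.24 and 4.56 in fresh-frozen tumours and 6.01, 7.33 and 7.46 in fresh-frozen controls. The fresh-frozen groups did not overlap, and 6 of 11 FFPE tumours lay below every control. The log2 fold change was -2.29 ± 0.60 in FFPE (SE; edgeR adjusted p = 0.0107) and -3.66 ± 0.89 in fresh-frozen tissue (edgeR adjusted p = 0.0103).

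On chromosome 15, ENSCAFG00000002830 at 15:2353693-2404431 (plus strand, 9 exons) fell. It had 2.37, 3.94 and 6.03 log2 CPM as lowest, median and highest in FFPE tumours and 4.66, 6.90 and 8.12 in FFPE controls, and 2.27, 3.13 and 5.48 in fresh-frozen tumours and 5.95, 6.52 and 7.32 in fresh-frozen controls. Every fresh-frozen tumour and 7 of 11 FFPE tumours lay below every control. The log2 fold change was -2.38 ± 0.47 in FFPE (SE; edgeR adjusted p = 0.00228) and -2.77 ± 0.54 in fresh-frozen tissue (edgeR adjusted p = 0.00377).

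**Figure D5:**
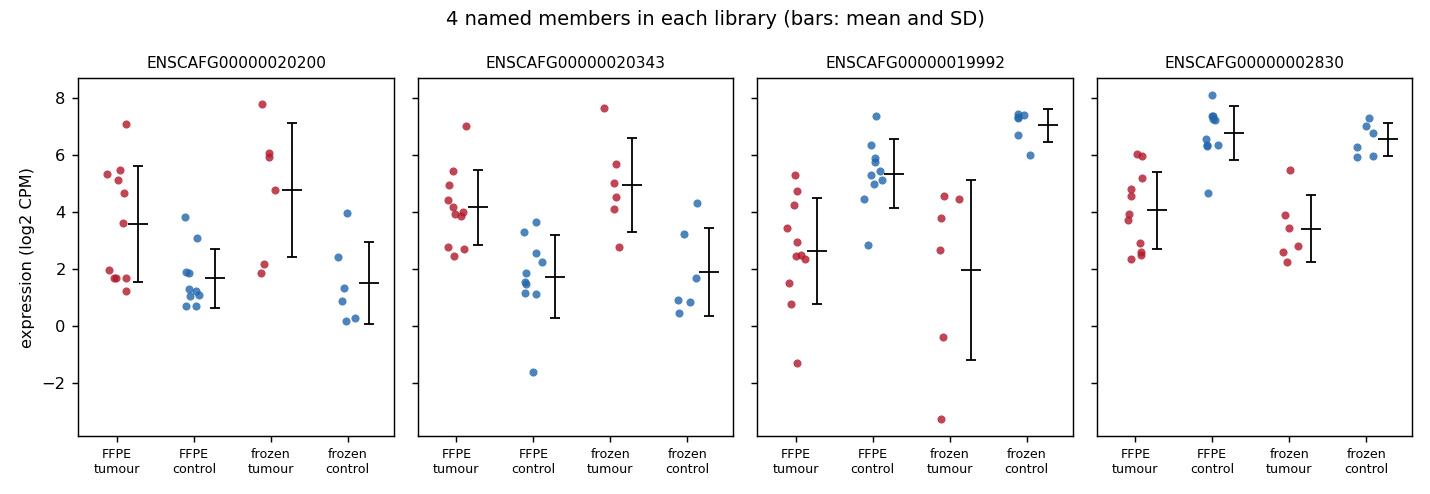
Expression (log2 CPM) of the 4 members given by identifier in each library, tumours left of controls for FFPE and for fresh-frozen tissue; bars give the mean and SD. The first 2 members reach 7.02 to 7.81 in the highest tumours and stay at or below 4.33 in every control, and the last 2 lie lower in tumours, with no overlap of the fresh-frozen groups.

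Just beyond it, the member at 15:2512402-2547699 (11 exons, minus strand) went the other way. Its lowest, median and highest log2 CPM were 5.95, 7.50 and 8.46 in FFPE tumours and 3.8, 5.45 and 7.32 in FFPE controls, and 6.13, 7.31 and 10.06 in fresh-frozen tumours and 5.33, 5.84 and 6.02 in fresh-frozen controls. All 6 fresh-frozen tumours and 7 of 11 FFPE tumours lay above every control. The log2 fold change was 1.92 ± 0.36 in FFPE (SE; edgeR adjusted p = 0.00171) and 2.56 ± 0.56 in fresh-frozen tissue (edgeR adjusted p = 0.00647).

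Chromosome 2 held a like pair. The member at 2:76242572-76309688 (6 exons, plus strand), which overlaps another annotated gene, had 4.38, 5.36 and 6.18 log2 CPM as lowest, median and highest in FFPE tumours and 5.98, 6.64 and 7.54 in FFPE controls, and 4.06, 4.54 and 5.62 in fresh-frozen tumours and 6.39, 7.30 and 7.61 in fresh-frozen controls. Below every control lay 10 of 11 FFPE and 6 of 6 fresh-frozen tumours. Its log2 fold change was -1.49 ± 0.24 in FFPE (SE; edgeR adjusted p = 0.000828) and -2.47 ± 0.30 in fresh-frozen tissue (edgeR adjusted p = 0.000683). The member at 2:75987085-75993599 (13 exons, plus strand) rose, by 1.69 ± 0.47 in FFPE (SE; edgeR adjusted p = 0.0149) and 2.50 ± 0.60 in fresh-frozen tissue (edgeR adjusted p = 0.00966), with 5 tumours above every control in each tissue. Other members on its side, starting at 75781091 (1.07 in FFPE and 1.68 in fresh-frozen tissue), 75998214 (1.08 and 2.11) and 76077022 (0.84 and 0.94), rose as well; they were chosen after their values were seen.

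Called members had a larger median exonic length and more exons than the members not called in the same fit, and only the falling ones had a longer median span. In FFPE tissue the rising members had a median exonic length of 2453 bp and the falling ones 2790 bp, against 2032 bp in members not called, and both had a median of 12 exons against 10. The median span was 21472 bp in rising, 40373 bp in falling and 26303 bp in not called members in FFPE tissue, and 22014, 40373 and 24676 bp in fresh-frozen tissue. The falling members were also the more abundant ones in control brain, with a median of 6.09 log2 CPM, against 4.34 in rising members and 4.03 in members not called. Fresh-frozen tissue gave medians of 2735 bp and 5.81 log2 CPM in falling members, and of 2076 bp and 3.33 log2 CPM in rising ones. The calls themselves rest on the control level, so a gap in control level between falling and rising members is partly built in. Length and abundance also set the power of such a test, and their part here was not tested.

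The FFPE and fresh-frozen comparisons share 8 dogs. In the FFPE libraries of the other dogs alone, 6 tumours and 7 controls, 19 members rose and 25 fell, against 4.01% rising and 5.51% falling over all genes tested. Of those 19 rising members, 16 also rose in fresh-frozen tumours, which is 84.2% of the 19 and 19% of the 84 that rose there, among the 462 members tested in both. Of the 25 falling members, 13 also fell in fresh-frozen tumours, which is 52% of the 25 and 21% of the 62, and none went the opposite way. Over all genes tested in both, the corresponding shares were 88.7% and 19.2% for rising genes and 59.7% and 26.7% for falling genes. On chromosome 5, 7 of the 9 members that fell in these FFPE tumours also fell in fresh-frozen tumours, out of 15 that fell there.

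Whether the tumour effect differed between FFPE and fresh-frozen tissue was tested with an interaction term over all 33 libraries. That fit took both libraries of each of the 8 dogs as independent. With edgeR 0 of 553 members passed, against 0% of all 15714 genes tested. An unadjusted p below 0.05 was found for 12 members and 575 genes, and DESeq2 called 0 members and 1 gene of the whole table. With the dog as a block in the 8 dogs alone, edgeR called 0 of 585 members and 0% of all genes, with 10 members at an unadjusted p below 0.05. FFPE and fresh-frozen tissue were compared in the 16 libraries of the 8 dogs with both, first without the dog in the fit. Total counts also differed, at 1596967 in FFPE and 25511851 in fresh-frozen tissue for dog 60462. For dog 60126 they were 32584840 and 26726025. Fixation, depth and the piece of tissue cannot be told apart here. Of 585 tested members 3 were higher and 1 was lower in FFPE tissue, against 2.81% higher and 0.135% lower over all 17097 genes. In other genes of the same class 0.816% were higher and 0.129% lower, and in the members 0.513% and 0.171%. With the dog as a replicate block the paired fit called 7 members, 6 higher and 1 lower, against 3.34% higher and 0.491% lower over all genes and 1.34% and 0.476% in other genes of the same class. The widest of the 4 was the member at 2:81103926-81106683 (2 exons), with a log2 fold change of FFPE over fresh-frozen tissue of 3.8 ± 0.88 (SE; edgeR adjusted p = 0.0237) at an average of 0.31 log2 CPM. The others were those at 5:61430740-61439063 (1.5), 2:73054742-73103364 (1.19) and 6:59492055-59527054 (-0.92). The member on chromosome 5 was not called in the paired fit (edgeR adjusted p = 0.0821), and the other 3 were.

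For comparison, the counterpart of human 19q, at the far end of chromosome 1, holds 688 genes of the same class. In FFPE tumours 17 of 378 tested rose and 50 fell there, with a median log2 fold change of -0.20. In fresh-frozen tumours 65 of 419 rose and 42 fell, with a median of 0.08. The falling shares were 13.2% and 10.0%, against 11.1% and 12.2% over all genes tested. The rising shares were 4.5% and 15.5%, against 10.1% and 18.3%. The shift of this stretch averaged -0.143 ± 0.403 in FFPE tumours and 0.115 ± 0.306 in FFPE controls (SD), and 9 of 11 tumours lay within the control range. In fresh-frozen tissue it averaged -0.033 ± 0.293 and 0.0012 ± 0.164. The chromosome 5 segment had median log2 fold changes of -0.18 and -0.20 in the same fits. The difference between both stretches was not tested.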

How the data were processed

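Total RNA libraries made with the Lexogen CORALL kit, which adds molecular identifiers, were sequenced in pairs, per the labels' protocols. Trimming with fastp and alignment with STAR to CanFam3.1 are named in the submitters' processing notes; the labels and headers do not say whether reads were collapsed by identifier. The authors deposited raw counts per gene, made with featureCounts 1.6.0 on the forward strand at a mapping quality of at least 10 over exons of Ensembl release 100, per the file headers; every column belonged to a sample of the study. Counting on one strand separates antisense genes, but 99 members overlap another gene on the same strand.

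Genes passing filterByExpr were fitted over the whole table with edgeR 4.0.16 (R 4.3.3; TMM scaling, robust quasi-likelihood F test, Benjamini-Hochberg adjustment at 0.05), one fit for FFPE, one for fresh-frozen tissue, an interaction fit over all 33 libraries, and a fit of preservation in the 16 libraries of 8 dogs. SEs of fold changes come from the fold change and its F statistic. Levels are log2 CPM with a prior count of 2. DESeq2 1.42.0 was an alternative. Scripts were tested on simulated counts. Libraries of one group differed beyond counting noise (lowest chi-square per degree of freedom 12.33). The dog number pairs both tissues of a dog; in 7 of 8 dogs the deviations of both libraries correlated above 0.1 (0.085 to 0.744). Identifiers matching the RefSeq table numbered 0, so no gene names were used. Members given by identifier were the 2 highest and 2 lowest by the smaller absolute fold change among those called in the same direction in both tissues at an average of 2 log2 CPM or more; by position, the highest and lowest of each segment by the same rule. Members, segments, lists and tests were chosen with earlier results of these data known.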

Additional observations from a re-analysis of the deposited data

Results flagged for a closer look

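Of 27 groups of 4 to 10 libraries looked at for segment shifts and for the 4 members given by identifier, 3 held a library far from the others; chance flags about 1 in 20 groups. On chromosome 15 the shift of the FFPE control of dog 50315 was -0.267, with the next control at -0.060 and the highest at 0.113. This library had 406406 counts, the fewest of all 33. The same library had -1.605 log2 CPM for ENSCAFG00000020343, with the next FFPE control at 1.145 and the highest at 3.665. For ENSCAFG00000002830 the FFPE control of dog 60462 had 4.657 log2 CPM, with the next control at 6.311 and the highest at 8.123; this library had 1596967 counts, the second fewest. The part of depth in these values was not tested.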

How the results depend on the processing

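Scaling by RLE size factors, grade II tumours left out, no filter on low counts and scaling without mitochondrial genes kept the counts of called members within 1.5 times. Breed as a covariate did so too (99 members called), but it was fitted only in the FFPE libraries of Boxers and French Bulldogs. Breed was not fitted in fresh-frozen tissue. In FFPE tissue, 97 members were called; DESeq2 called 147 (58 higher, 89 lower in tumours), the fit without the 8 dogs that have both tissues 44 (19 and 25), those dogs alone 0, and age as a covariate 2 (0 and 2), the last 3 with fewer libraries. Single libraries left out gave 73 to 118. In fresh-frozen tissue, 165 were called; without the set of 4 dogs 81 (43 and 38), in that set alone 0, with 139 at an unadjusted edgeR p below 0.05, and without single libraries 100 to 181, with 100 without the control of dog 60629, 102 without the tumour of dog 60631, 105 without the tumour of dog 60461, 106 without the control of dog 60460 and 109 without the control of dog 60459. For FFPE against fresh-frozen tissue of the same dogs, where the fit without a block called 4, the replicate block gave 7 and leaving out 1 dog gave 0 to 6, with 52 to 71 members at an unadjusted p below 0.05 where edgeR called 0. The replicate block changed no other call: the interaction called 0 members with it, with 10 at an unadjusted p below 0.05. With genes within 1 Mb of a limit left out, the tumour minus control difference of the shift was -0.456 in FFPE and -0.563 in fresh-frozen tissue on chromosome 5 and -0.061 in fresh-frozen tissue on chromosome 15. The chromosome 15 difference was 0.051 in FFPE tissue without the 8 dogs and 0.041 in fresh-frozen tissue without centring, where that of all 4 segments was -0.019. Single libraries left out moved it between -0.263 and -0.138 on chromosome 5 in FFPE and between -0.380 and -0.226 in fresh-frozen tissue, and across 0 on chromosomes 2 and 15 in both tissues and on chromosome 6 in fresh-frozen tissue. The fresh-frozen call of ENSCAFG00000020343 was lost with no filter on low counts (edgeR adjusted p = 0.0569). In FFPE tissue without the 8 dogs 4.01% of all genes rose and 5.51% fell. For the other refits of tumour against control, the shares of all genes called were not counted. The causes were not tested.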
